A study of Homo sapiens with 12 samples.

Results

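The effect of gefitinib was measured in PC9 cells that shared their wells with MRC-5 fibroblasts. PC9 is a human lung adenocarcinoma line that depends on a mutated, active epidermal growth factor receptor (EGFR), and gefitinib is a small molecule that blocks the kinase of this receptor. MRC-5 is a line of human lung fibroblasts, which sat on the other side of a porous insert, so that secreted factors but not whole cells could pass. The comparison set the 3 arrays titled as co-culture with gefitinib against the 3 arrays titled as co-culture without it, which makes 6 of the 12 arrays of the series. The other 6 arrays hold PC9 grown alone, 3 with DMSO and 3 with gefitinib, and they enter the shared normalization and estimate of spread and show where the response in co-culture differed.

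Per the labels, gefitinib was given at 0.5 µM after 24 h, the cells were then rinsed, and co-culture in EMEM with 10% FCS ran for 48 h over inserts with 1 µm pores. The series text places RNA collection 48 h after gefitinib, and the same treatment text stands on all 12 arrays, so the sources used here leave unsaid whether the drug was present during co-culture. The DMSO of the monoculture controls is named in the labels, but the labels of the co-culture without gefitinib name no agent at all, so these 3 arrays are called untreated here. Both co-culture groups carry the ending WH in their titles, which is not explained in the sources used here, and the monoculture titles do not. The labels do not say whether the 3 arrays of a group came from separate cultures, so each p-value measures the spread between these samples, which may be technical.

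EGFR passes its signal through RAS, RAF and MEK to the kinase ERK, and through PI3K to AKT. Active ERK switches on its own brakes, among them the phosphatase DUSP6 and the Sprouty proteins, together with ETS transcription factors and the genes that drive a cell into division. ERK and stress kinases also switch on early response genes such as FOS and EGR1 within minutes, through the serum response factor SRF, while AKT keeps FOXO factors out of the nucleus. In EGFR-dependent lung tumour cells an EGFR inhibitor is known to lower ERK output and division and to raise interferon, antigen presentation and FOXO genes.

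Each array held signals of 48102 complete probes, of which 21099 to 21938 were above background on the untreated co-culture arrays and 21873 to 22820 on those with gefitinib. Mean signals were 371 to 428 intensity units without the drug and 419 to 444 with it. After normalization 13514 genes were tested, each level being a log2 value of the brightest probe. The first principal component of all 12 arrays held 59.3% of the variance, and on it the untreated co-culture arrays lay at -29.3, -29.0 and -28.3 and the co-culture gefitinib arrays at 21.4, 16.4 and 12.7. Monoculture arrays lay at -31.6 to -30.9 with DMSO and at 42.7 to 43.5 with gefitinib, so the drug-treated co-culture stood apart from the untreated one but short of the drug-treated monoculture. The 3 co-culture gefitinib arrays were not alike in how far they had moved. Among the 2710 genes that changed in co-culture, gefitinib array 1 was the farthest of the 3 from the untreated mean for 1350 genes (49.8%) and array 3 for 585 (21.6%).

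Fibroblast RNA was looked for with 12 defining fibroblast markers. COL3A1, LUM, PDGFRB and THY1 were above background on 0 of 12 arrays. COL1A1 was above it on all 3 arrays of every group, and TWIST1 on all 3 except in the untreated co-culture (2 of 3). COL6A3 was above it on 0 of 3 arrays in either monoculture group, 1 of 3 in untreated co-culture and 2 of 3 with gefitinib. DCN was above it on 0 of 3 DMSO and 1 of 3 gefitinib monoculture arrays, and on 0 and 2 of 3 in co-culture. POSTN was above it on 1 of 3 DMSO arrays and 0 in co-culture. In the untreated co-culture 8 of the 12 markers were below background on all 3 arrays, and with gefitinib 5 were. Their summed signal was 122 to 191 units without gefitinib and 180 to 233 with it, beside 32245 to 34091 and 39011 to 40134 units for 13 epithelial markers. In PC9 alone, without fibroblasts in the well, the same 12 markers summed to 128 to 158 units with DMSO and 211 to 230 with gefitinib. Of the 6 defining markers that were tested, 0 passed the limma test for gefitinib in co-culture, and 0 did at an unadjusted p under 0.05. Fewer cells of a type and less RNA per cell cannot be told apart in such bulk RNA, and the part of these markers in any single gene's change was not tested.

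**Figure D1:**
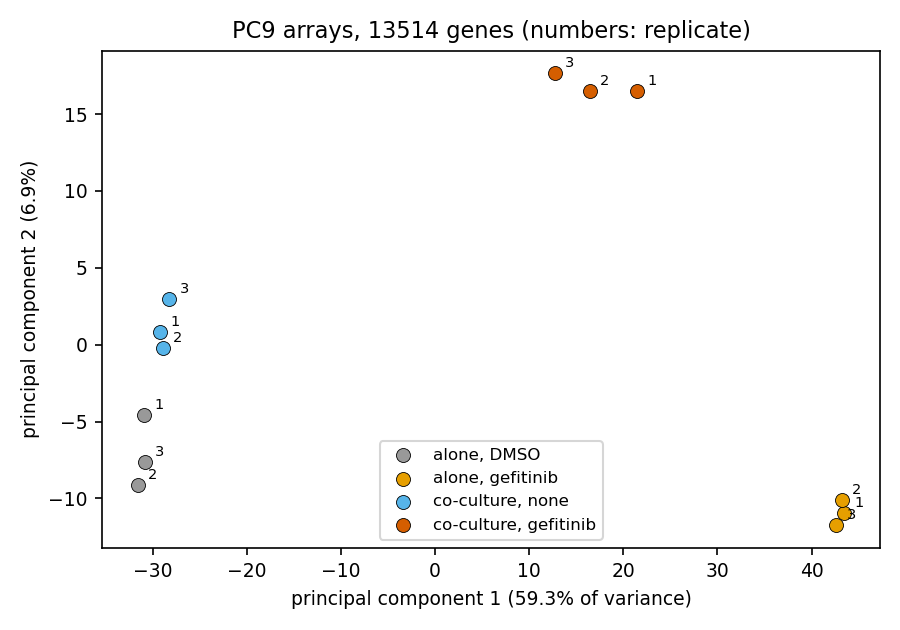
Position of the 12 arrays on the first principal component (horizontal, 59.3% of the variance) and the second (vertical, 6.93%), computed over 13514 genes; colours mark the 4 groups and numbers the replicate. The co-culture gefitinib arrays lie between 12.7 and 21.4 on the first component, between the untreated co-culture near -29 and gefitinib alone near 43.

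Gefitinib changed 2710 of the 13514 genes in co-culture (20.1%), of which 1471 were higher (10.9%) and 1239 lower (9.17%), at an adjusted p under 0.05 by limma. When arrays were scaled to one median instead of quantile-normalized, the median change of all genes moved from -0.01 to 0.13, and the share of calls that were higher moved from 54.3% to 83.8%, so small falls depend on the scaling. The 3 arrays of one group lay wholly above the 3 of the other for 5039 genes (37.3%). Counts of genes in named groups are read against these shares.

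The largest rise was that of ATP6V1B1, a subunit of the vacuolar proton pump. Its log2 levels were 5.87, 5.03 and 5.36 on the untreated arrays and 10.72, 10.48 and 10.29 on the gefitinib arrays. The groups were far apart, and the gene was 33.7-fold higher with gefitinib (5.07 ± 0.24 log2 units, SE of the fit, n = 3 arrays per group, adjusted p = 1.79e-07 by limma). The actin-binding protein TAGLN went from 4.88, 4.56 and 4.82 to 9.66, 9.61 and 9.35, a measured 27.6-fold difference, with 1 of the 3 untreated arrays above background. OLR1, a scavenger receptor for oxidized lipoprotein, went from 5.98, 6.05 and 6.05 to 10.71, 10.36 and 10.11, 20.6-fold higher. The inhibitory T cell ligand VTCN1 was 17.8-fold higher, with 5.27, 5.74 and 5.49 on the untreated arrays against 9.86, 9.68 and 9.44. On each of these genes all gefitinib arrays stood clear of the untreated ones by over 3 log2 units.

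Further large rises included TCIM (3.22 ± 0.18), a regulator of WNT signalling; RGL1 (3.17 ± 0.14), an exchange factor of the Ral pathway; FRAS1 (3.15 ± 0.12), a basement membrane protein; the folate receptor FOLR1 (2.97 ± 0.21); and FILIP1L (2.85 ± 0.13). TCIM was above background on 1 of 3 untreated arrays. PDZK1IP1 was below background on all 3 untreated arrays and was at least 8.33-fold higher with gefitinib. The deepest fall was that of ACOX2, a peroxisomal oxidase of branched fatty acids and bile acid precursors, from 8.99, 8.74 and 8.93 to 4.83, 5.69 and 5.95. All 3 gefitinib arrays were low, array 1 lowest, and the gene fell by 3.40 ± 0.23 log2 units (adjusted p = 1.76e-06 by limma). TH, tyrosine hydroxylase, fell by 2.33 ± 0.21, MILR1, an inhibitory receptor known from mast cells, by 2.32 ± 0.26, the calpain CAPN8 by 2.26 ± 0.16, the nuclear protein TOX2 by 2.29 ± 0.17, the lipase LIPG by 1.92 ± 0.14, the ephrin EFNB1 by 1.89 ± 0.13 and the transporter SLC45A3 by 1.87 ± 0.15. Of these, ACOX2, TH, MILR1, CAPN8, EFNB1 and SLC45A3 did not pass the test of a difference from the effect of gefitinib in monoculture (adjusted p from 0.184 to 0.999 by limma).

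**Figure D2:**
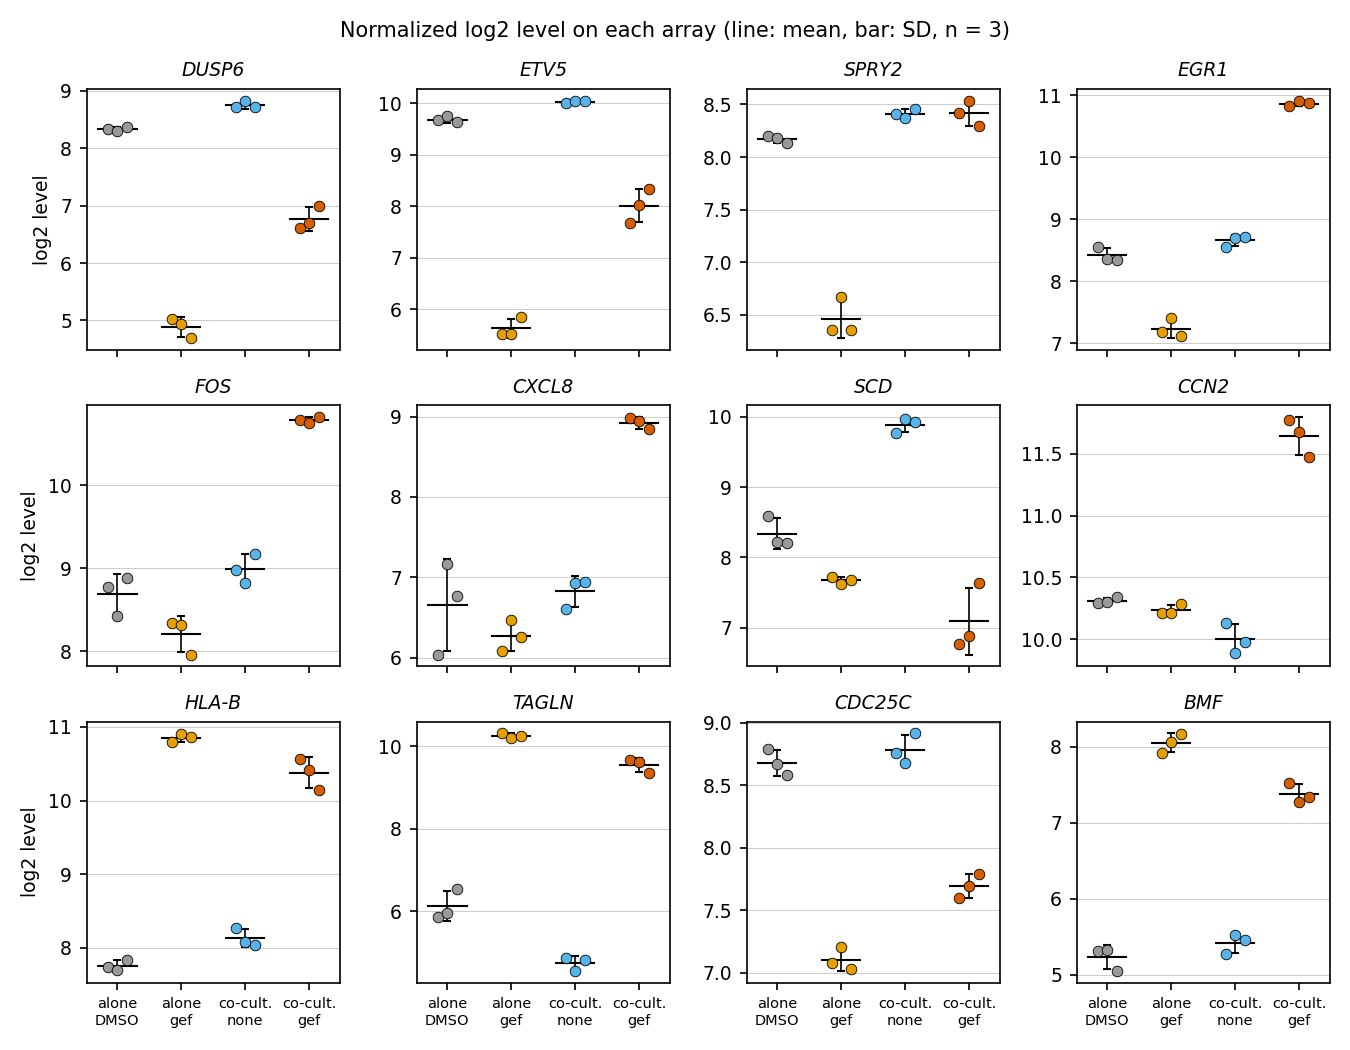
Normalized log2 level (vertical) of 12 genes on each array of the 4 groups (horizontal); points are arrays, lines means and bars SD (n = 3). DUSP6, ETV5, CDC25C and SCD are lower and EGR1, FOS, CXCL8, CCN2, HLA-B, TAGLN and BMF higher with gefitinib in co-culture, while SPRY2 is level there and low with gefitinib alone.

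The brakes that ERK switches on responded in part. Of 10 tested ERK phosphatases and Sprouty or Spred inhibitors 5 fell and 0 rose (also 0 at an unadjusted p under 0.05 by limma), with a median of -0.29 against -0.01 for all genes. DUSP6, the phosphatase of ERK itself, had levels of 8.72, 8.82 and 8.71 without gefitinib and 6.60, 6.69 and 7.00 with it, a fall of 1.99 ± 0.12 with no overlap. SPRY1, which blocks RAS activation below receptors, fell by 1.16 ± 0.13, and SPRED2 fell by 0.82 ± 0.17. SPRY4 fell by 1.15 ± 0.13 on its brightest probe, a call lost by averaging its 3 probes (-0.40, adjusted p = 0.127 by limma). SPRED1 fell by 0.38 ± 0.08, which did not last under median scaling (-0.21, adjusted p = 0.33 by limma). By contrast SPRY2 read 8.41, 8.37 and 8.45 without gefitinib and 8.42, 8.53 and 8.30 with it. The groups overlapped, and the change was 0.00 ± 0.11. DUSP4, a nuclear ERK phosphatase, read 5.90, 5.87 and 6.30 without and 5.38, 5.83 and 6.26 with gefitinib, also with overlap (-0.20 ± 0.22).

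SPRY2 and DUSP4 both fell in monoculture, by 1.71 and 2.09 log2 units. The effect in co-culture was higher by 1.71 ± 0.15 for SPRY2 (adjusted p = 2.63e-04 by limma) and by 1.89 ± 0.31 for DUSP4 (adjusted p = 0.00688 by limma). For 7 of the 10 brakes the effect was less negative in co-culture by this test, and for 0 it was more so, beside 3.94% and 3.34% of all genes. SPRY1 was among the 3 that did not pass, with -1.16 in co-culture and -1.48 alone.

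Of 18 tested PEA3 ETS factors and other ERK output genes 7 fell and 2 rose, with a median of -0.31. The ETS factor ETV5 went from 10.01, 10.03 and 10.04 to 7.68, 8.02 and 8.33, and array 1 was the lowest. Its relative ETV4 went from 8.81, 8.88 and 8.75 to 6.23, 7.02 and 6.97. Both groups were apart for each gene, and ETV4 fell by 2.08 ± 0.18 and ETV5 by 2.02 ± 0.15. PHLDA2, a growth regulator of the placenta and of tumours, fell by 1.26 ± 0.18. FOSL1, an AP-1 subunit that long ERK activity sustains, read 10.52, 10.24 and 10.32 untreated and 9.93, 10.05 and 9.86 with gefitinib; the groups did not overlap, but the change of -0.42 ± 0.14 missed the test (adjusted p = 0.0536 by limma). The cyclin CCND1 (11.97, 11.76 and 11.77 against 11.80, 11.85 and 11.81) and MYC (10.96, 11.04 and 11.01 against 10.72, 11.02 and 10.79) overlapped between the groups, with changes of -0.01 ± 0.09 and -0.16 ± 0.10. The 2 genes that rose are EPHA4, an ephrin receptor (1.58 ± 0.20), and TFPI2, an inhibitor of serine proteases (1.58 ± 0.13). In monoculture FOSL1 fell by 2.47, CCND1 by 0.73 and MYC by 0.90, and the difference between the effects passed for each of the 3 (adjusted p = 3.23e-04, 0.0114 and 0.013 by limma).

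Many early response genes rose. Among 13 tested AP-1 family genes 7 rose and 0 fell (1 at an unadjusted p under 0.05 by limma), with a median of 0.55, and among 32 other early response genes 14 rose and 1 fell, with a median of 0.36. EGR1, a zinc finger factor switched on by serum and stress, read 8.56, 8.70 and 8.72 on the untreated arrays and 10.83, 10.91 and 10.87 on the gefitinib arrays. All 3 treated arrays stood more than 2 log2 units above all untreated ones, a 4.63-fold rise (adjusted p = 1.59e-07 by limma). FOS, a core AP-1 subunit, read 8.98, 8.83 and 9.17 without and 10.78, 10.75 and 10.82 with gefitinib. FOSB, its close relative, read 5.14, 5.59 and 5.86 without and 7.64, 7.44 and 7.07 with gefitinib. The stress-induced repressor ATF3 read 6.67, 6.62 and 6.74 without and 8.64, 8.73 and 8.64 with gefitinib. In each of the 4 genes the groups were apart. JUNB rose by 1.16 ± 0.13 and BATF by 0.87 ± 0.11.

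Of the other early genes, the dual phosphatase DUSP1, which acts mainly on the stress kinases p38 and JNK, rose by 2.47 ± 0.16, from 8.21, 8.30 and 8.43 to 10.89, 10.68 and 10.77. The kinase SGK1 rose by 1.60 ± 0.10, the factors KLF9 and CEBPD by 1.04 ± 0.18 and 1.00 ± 0.10, and GADD45A, a stress and growth arrest gene, by 0.97 ± 0.09. The endothelial and lung factor KLF2 was the 1 member that fell, by 0.82 ± 0.22, and its call was lost without untreated co-culture array 2 or 3 or co-culture gefitinib array 1 or 2 (adjusted p from 0.0563 to 0.0743 by limma) and also under median scaling (-0.64, adjusted p = 0.0815 by limma).

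EGR1 was chosen as the promoter to show for the early genes because it had the smallest p among the other early response genes. Its 250 bases before the start (RefSeq, GRCh38.p14, chr5:138465229-138465478, plus strand) are given 5′ to 3′ with capitals for the CArG box, the sequence that SRF binds:
EGR1: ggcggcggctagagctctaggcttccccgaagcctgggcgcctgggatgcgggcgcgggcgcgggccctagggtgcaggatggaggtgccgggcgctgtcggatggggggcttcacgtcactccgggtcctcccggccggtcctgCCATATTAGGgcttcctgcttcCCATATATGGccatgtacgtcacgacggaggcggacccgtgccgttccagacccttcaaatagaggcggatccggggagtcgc
A search on both strands found 2 CArG boxes, at positions -105 to -96 and -83 to -74 from the start. Such a box was found in 2 of 25 other early response promoters, 0 of 12 AP-1 family promoters and 1.05% of the promoters of 10705 tested genes. These matches describe the letters of this window and say nothing of binding.

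Cell division genes fell. Of 54 tested mitosis and spindle genes 46 fell and 0 rose, with a median of -0.61, and of 41 DNA replication genes 23 fell and 0 rose, with a median of -0.43. In both lists 0 genes were higher even at an unadjusted p under 0.05 by limma. The effect was less negative than alone by the test of the difference for 35 of the mitosis and 27 of the replication genes, and more negative for 0 of either. Over all genes 3.94% of differences passed above 0 and 3.34% below. The phosphatase CDC25C, which opens mitosis by activating CDK1, read 8.76, 8.68 and 8.91 without gefitinib and 7.60, 7.69 and 7.79 with it. No gefitinib array reached an untreated one, and the fall was 1.09 ± 0.10 (adjusted p = 1.78e-05 by limma). KIF2C, a kinesin that takes apart microtubule ends, fell by 0.84 ± 0.09, the spindle protein HMMR by 0.81 ± 0.09, the kinetochore protein SPC24 by 0.91 ± 0.11 and the centromeric histone CENPA by 0.75 ± 0.09. Cyclin E1, CCNE1, which drives entry into DNA synthesis, went from 8.89, 8.81 and 8.80 to 8.04, 8.01 and 7.95, without overlap. The proliferation antigen MKI67 read 7.21, 7.13 and 7.10 without and 6.59, 6.65 and 6.55 with gefitinib, a fall of 0.55 ± 0.13, and the replication genes CHAF1B and DUT, a histone chaperone and a nucleotide hydrolase, fell by 0.73 ± 0.13 and 0.58 ± 0.08. Under median scaling the calls of MKI67 (-0.31, adjusted p = 0.18 by limma) and DUT (-0.41, adjusted p = 0.0576 by limma) ended, and the median of the replication list was -0.28 against 0.13 for all genes.

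HMMR is shown for the mitosis genes because it had the smallest p among those whose promoter holds both motifs searched there, the cell cycle homology region (CHR, TTTGAA) and the NF-Y box (CCAAT), which it was picked for after the motifs had been looked up. The capitals mark both motifs on either strand (chr5:163460382-163460631, plus strand, RefSeq, GRCh38.p14):
HMMR: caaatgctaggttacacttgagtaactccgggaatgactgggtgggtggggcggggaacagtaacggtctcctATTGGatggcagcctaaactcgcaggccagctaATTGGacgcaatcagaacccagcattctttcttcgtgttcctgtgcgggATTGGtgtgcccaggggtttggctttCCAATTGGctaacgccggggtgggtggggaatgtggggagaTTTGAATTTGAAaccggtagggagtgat
The scan found 2 adjoining CHR matches from -28 to -17 and 5 NF-Y boxes, of which those at -69 to -65 and -66 to -62 overlap on opposite strands. A CHR was found in 22 of 46 mitosis promoters (47.8%) and in 9.10% of the promoters of tested genes. NF-Y boxes were found in 33 of 46 (71.7%) and in 35.2%.

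Of 21 D cyclins, CDKs, E2F factors and CDK inhibitors tested 4 rose and 3 fell. CDKN2B, an inhibitor of CDK4 and CDK6, read 6.50, 6.63 and 6.60 without and 8.30, 8.06 and 7.98 with gefitinib, a 2.9-fold rise between groups that were well apart. CDKN1A, the p21 inhibitor, rose by 0.55 ± 0.12 and CDKN1B, the p27 inhibitor, by 0.38 ± 0.10. The CDKN1B call was lost without untreated co-culture array 1 or 3 or co-culture gefitinib array 1 (adjusted p from 0.0631 to 0.0872 by limma) and also with only the compared groups (0.38, adjusted p = 0.0713 by limma).

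Of 17 tested replication-dependent histones 9 rose and 1 fell, with a median of 0.75. The test of the difference from monoculture passed below 0 for 6 and above 0 for 0 (2 at an unadjusted p under 0.05 by limma). Over all genes 3.34% passed below 0 and 3.94% above, and counts below 0 may depend on the scaling. H2BC5 read 9.22, 9.01 and 9.45 on the untreated arrays and 11.19, 10.72 and 10.88 on the treated ones, a 3.25-fold difference. H2AC18 read 7.85, 8.09 and 7.97 without and 9.50, 9.27 and 9.60 with gefitinib. In both genes all treated arrays were above all untreated ones. The linker histone H1-2 read 9.41, 9.27 and 9.29 without and 10.54, 10.52 and 10.51 with gefitinib, and the treated arrays lay within 0.03 of each other. Several histone genes share near-identical sequence, and how far their probes separate them was not tested. Of 32 DNA repair and checkpoint genes 13 fell and 1 rose, with a median of -0.24. Among them CHEK1, the replication checkpoint kinase, fell by 0.61 ± 0.10, BRCA1 by 0.59 ± 0.11 and FANCG, of the Fanconi anaemia core, by 0.72 ± 0.12. The calls of CHEK1 and BRCA1 were lost under median scaling (-0.40, adjusted p = 0.115 by limma for CHEK1 and -0.39, adjusted p = 0.0842 by limma for BRCA1).

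Of 40 tested cytosolic ribosomal proteins 0 rose (1 at an unadjusted p under 0.05 by limma) and 1 fell, RPS7, by 0.70 ± 0.14. The list median was -0.04. Ribosome biogenesis had 34 tested genes, 8 lower and 1 higher, and a median of -0.16. BOP1, a factor of large subunit assembly, went from 10.69, 10.59 and 10.77 to 9.95, 10.06 and 10.04, clear of overlap. For LYAR, a nucleolar protein, the fall was 0.46 in co-culture and 1.72 alone, and the difference passed (adjusted p = 0.0011 by limma). Under median scaling RPS7 and LYAR no longer passed (-0.52, adjusted p = 0.0582 by limma and -0.30, adjusted p = 0.168 by limma).

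Many interferon and antigen presentation genes rose with fibroblasts present. Of 46 tested type 1 interferon response genes 26 rose and 1 fell, with a median of 0.65, and of 21 class 1 presentation genes 14 rose and 0 fell (1 at an unadjusted p under 0.05 by limma), with a median of 0.57. By the test of the difference 7 of the interferon and 4 of the class 1 genes had a less positive effect than alone and 0 a more positive one, beside 3.34% and 3.94% of all genes. Differences below 0 over all genes numbered 451 and were 82 under median scaling, so these counts may depend on the scaling. HLA-B, a class 1 heavy chain, read 8.27, 8.09 and 8.04 without gefitinib and 10.57, 10.42 and 10.15 with it. Every treated array was high, and the rise was 4.74-fold (adjusted p = 2.61e-07 by limma). HLA genes are highly alike and variable between people, so that a probe named for one may read another. HLA-F rose by 1.61 ± 0.10, the immunoproteasome subunit PSMB9 by 1.42 ± 0.11, the peptide loader TAPBPL by 1.27 ± 0.13 and TAPBP by 1.02 ± 0.10. B2M, the light chain shared by all class 1 molecules, read 12.66, 12.83 and 12.97 without and 13.49, 13.34 and 13.32 with gefitinib, a smaller rise of 0.57 ± 0.11.

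Among interferon genes GBP2 and GBP1, GTPases of cell defence, rose by 2.02 ± 0.17 and 1.57 ± 0.13. EPSTI1 went from 5.90, 6.16 and 6.13 to 7.53, 7.50 and 7.25. IFIT2, which binds viral RNA, went from 6.48, 6.61 and 6.56 to 8.43, 8.01 and 7.79. Both genes were higher on every gefitinib array, IFIT2 most on array 1. The 1 gene of the list that fell was OAS1, an activator of RNase L, by 0.59 ± 0.12, and this call was lost under median scaling (-0.35, adjusted p = 0.117 by limma) and by averaging its probes (-0.40, adjusted p = 0.06 by limma). Of 8 tested class 2 genes 4 rose and 0 fell: CD74, the invariant chain, by 1.92 ± 0.15, HLA-DMA by 1.25 ± 0.11, HLA-DMB by 1.06 ± 0.22, and HLA-DRA by 0.39 ± 0.11. HLA-DMB was above background on 1 of 3 untreated arrays. The HLA-DRA call was lost without untreated co-culture array 1 or 3 or co-culture gefitinib array 1 or 3 (adjusted p from 0.0757 to 0.097 by limma) and also with only the compared groups (0.39, adjusted p = 0.0587 by limma).

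The promoter of EPSTI1, the interferon gene with the smallest p, is printed with capitals for the interferon-stimulated response element (ISRE, searched as GAAA and GAAA around any pair of bases), at -50 to -41 (chr13:42992242-42992491, minus strand, RefSeq, GRCh38.p14):
EPSTI1: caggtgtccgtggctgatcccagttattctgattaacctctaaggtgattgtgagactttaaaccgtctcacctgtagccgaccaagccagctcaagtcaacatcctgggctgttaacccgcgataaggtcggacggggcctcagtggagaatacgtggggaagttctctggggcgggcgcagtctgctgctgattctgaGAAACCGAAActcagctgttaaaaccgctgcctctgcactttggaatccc
Searched on both strands, this element was in 22 of 36 interferon promoters (61.1%), in 7 of 20 class 1 presentation promoters and in 2.39% of the promoters of tested genes.

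Of 14 tested complement genes 10 rose and 0 fell (also 0 at an unadjusted p under 0.05 by limma), with a median of 0.91. The protease C1S of the classical pathway read 6.67, 5.64 and 5.83 on untreated and 9.42, 9.06 and 8.94 on treated arrays. Factor B, CFB, read 7.19, 6.93 and 7.37 without and 10.03, 9.92 and 9.72 with gefitinib. Factor D, CFD, the protease that cuts factor B, read 8.15, 8.05 and 8.23 without and 10.26, 10.01 and 10.03 with gefitinib. In all 3 genes the groups were apart, with folds of 8.51, 6.62 and 3.88. Factor I, CFI, an inhibitor of the cascade, rose by 1.18 ± 0.20, and CD59, which protects cells from lysis, by 0.64 ± 0.12. For 0 of the 14 did the limma test of the difference from monoculture pass, and for 4 the unadjusted p was under 0.05, all with a less positive effect in co-culture.

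Ligands that T cells and other immune cells read were mixed. Of 17 tested 7 rose and 2 fell. Beside VTCN1, the galectin LGALS9 rose by 1.20 ± 0.13, the adhesion molecule ICAM1 by 1.49 ± 0.21 (2 of 3 arrays of each group above background) and CD47, which inhibits phagocytosis, by 0.65 ± 0.12. The adhesion molecule CD58 fell by 0.56 ± 0.13, a call lost without co-culture gefitinib array 2 (adjusted p = 0.052 by limma) and also under median scaling (-0.39, adjusted p = 0.173 by limma). ICAM2 fell by 0.50 ± 0.12, likewise lost under median scaling (-0.30, adjusted p = 0.19 by limma).

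Of 27 tested chemokines and cytokines 9 rose and 1 fell, with a median of 0.22. CXCL8, the neutrophil chemokine, read 6.60, 6.93 and 6.95 without gefitinib and 8.98, 8.94 and 8.84 with it. The treated arrays agreed within 0.15 and stood well above the others, a 4.27-fold rise (adjusted p = 7.04e-05 by limma). IL6 read 5.99, 6.34 and 6.25 without and 7.87, 7.67 and 7.74 with gefitinib. IL32 read 5.13, 5.09 and 4.57 without and 7.33, 7.15 and 7.26 with gefitinib, with 1 of 3 untreated arrays above background. TGFB2, a transforming growth factor, went from 5.53, 5.64 and 4.96 to 7.44, 7.55 and 7.50. CXCL16 rose by 1.55 ± 0.10. IL1B was the 1 member that fell, from 6.29, 6.56 and 5.83 to 5.05, 5.31 and 5.13, by 1.07 ± 0.22.

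The NF-kB list had 10 of 21 higher and 1 lower. RELB, a subunit of the non-canonical pathway, read 5.82, 5.83 and 5.99 without and 7.60, 7.29 and 7.97 with gefitinib. The kinase MAP3K8 rose by 1.62 ± 0.17, the nuclear inhibitor NFKBIZ by 1.54 ± 0.10 and NFKBIA, the inhibitor that resets the pathway, by 0.84 ± 0.08. Among 28 JAK and STAT3 genes 11 rose and 1 fell. The acute phase protein SAA1 read 4.51, 4.99 and 4.60 without and 6.87, 6.71 and 6.54 with gefitinib, and STAT3 itself read 9.66, 9.58 and 9.63 without and 10.38, 10.29 and 10.16 with gefitinib, both without overlap. SAA1 was above background on 1 of 3 untreated arrays. The iron-binding protein LCN2 rose by 0.83 ± 0.10.

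Part of the lipid synthesis genes fell. Of 28 tested fatty acid synthesis and storage genes 9 fell and 2 rose, and of 21 cholesterol genes 7 fell and 1 rose, with medians of -0.17 and -0.31. SCD, the desaturase that makes oleic acid, read 9.77, 9.97 and 9.93 on the untreated arrays and 6.76, 6.88 and 7.64 on the treated ones. Arrays 1 and 2 were the lowest, array 3 was still more than 2 log2 units under the untreated arrays, and SCD was 6.95-fold lower (adjusted p = 2.58e-06 by limma). SREBF1, the factor that drives fatty acid genes, read 9.21, 9.13 and 9.10 without and 8.29, 8.57 and 8.16 with gefitinib. Fatty acid synthase, FASN, read 12.18, 12.17 and 12.24 without and 11.39, 11.44 and 11.49 with gefitinib. INSIG1, which holds SREBP factors in the endoplasmic reticulum and is itself one of their targets, read 9.10, 9.20 and 9.25 without and 7.90, 7.76 and 8.02 with gefitinib. The groups did not overlap in any of the 3.

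LPIN1, a phosphatidate phosphatase, fell by 0.98 ± 0.09, the acyl-CoA synthetase ACSL5 by 0.75 ± 0.08 and mevalonate kinase, MVK, by 0.88 ± 0.11. TM7SF2, a sterol reductase, was the cholesterol gene that rose (1.61 ± 0.17), and SCD5, the second human desaturase, rose by 0.95 ± 0.08 on its brightest probe, a call not kept by averaging its probes (0.38, adjusted p = 0.114 by limma). Of 12 tested liver X receptor targets 6 fell and 2 rose. NR1H3, the liver X receptor alpha, went from 9.27, 9.11 and 9.36 to 8.35, 8.26 and 8.51, without overlap. ABCA1, the cholesterol exporter, read 8.87, 8.97 and 8.86 without and 8.60, 8.67 and 8.44 with gefitinib, a change of -0.33 ± 0.10 whose call was lost under median scaling (-0.14, adjusted p = 0.578 by limma), without a filter (-0.33, adjusted p = 0.0666 by limma), with only the compared groups (-0.33, adjusted p = 0.0714 by limma) and with the replicate number as a block (-0.33, adjusted p = 0.0759 by limma). It was also lost without any one of the co-culture arrays, any one of the DMSO arrays or gefitinib monoculture array 2 (adjusted p from 0.0532 to 0.148 by limma). Alone ABCA1 rose by 1.14, and the effects differed by -1.47 ± 0.15 (adjusted p = 5.42e-04 by limma). Alone it read 7.58, 7.55 and 7.43 with DMSO and 8.52, 8.62 and 8.83 with gefitinib. Its drug-free level was thus lower alone than in co-culture, while its levels with gefitinib overlapped between the settings.

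The SCD promoter, that of the fatty acid gene with the smallest p, is shown for its pair of NF-Y boxes in capitals, at -229 to -225 and -186 to -182 (chr10:100346983-100347232, plus strand, RefSeq, GRCh38.p14):
SCD: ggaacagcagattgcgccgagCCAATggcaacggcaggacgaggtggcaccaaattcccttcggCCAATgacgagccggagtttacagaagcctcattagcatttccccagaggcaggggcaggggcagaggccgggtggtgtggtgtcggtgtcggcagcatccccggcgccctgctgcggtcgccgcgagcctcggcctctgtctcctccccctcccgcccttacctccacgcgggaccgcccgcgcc
NF-Y boxes were in 14 of 19 cholesterol promoters (73.7%) and 8 of 25 fatty acid promoters, beside 35.2% of the promoters of tested genes. The sterol element TCACNCCAC was in 1 of 19 cholesterol and 0 of 25 fatty acid promoters within this window, beside 0.84% of the promoters of tested genes.

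Of 27 glycolysis genes 11 fell and 4 rose, with a median of -0.24. PFKFB4, a switch of glycolytic flux, read 8.17, 8.04 and 8.20 without and 6.98, 7.04 and 7.03 with gefitinib, and its relative PFKFB3 moved the other way, from 9.67, 9.76 and 9.62 to 10.75, 10.61 and 10.62. Neither gene's groups overlapped. The enolase ENO2 fell by 0.84 ± 0.11 and the pyruvate kinase PKM by 0.46 ± 0.08, the latter lost under median scaling (-0.36, adjusted p = 0.0705 by limma). Of 20 hypoxia targets 6 fell and 1 rose, ADM, a vasodilator peptide, by 0.48 ± 0.10. NDRG1, a gene of hypoxia and differentiation, went from 10.58, 10.62 and 10.51 to 9.49, 9.46 and 9.51, and DDIT4, an inhibitor of mTORC1, from 10.58, 10.67 and 10.62 to 9.73, 9.60 and 9.79. Both fell in co-culture only by their own tests, and the difference from monoculture passed for NDRG1 (-1.27 ± 0.14, adjusted p = 9.60e-04 by limma) and for DDIT4 (-0.70 ± 0.14, adjusted p = 0.0132 by limma), for DDIT4 not with median scaling (-0.32, adjusted p = 0.261 by limma). The angiogenic factor VEGFA fell by 1.22 ± 0.20 and the adenylate kinase AK4 by 1.21 ± 0.13. Of 41 nuclear-encoded oxidative phosphorylation genes 4 fell and 1 rose, shares near or under those of all genes. Of 20 NRF2 targets 2 rose and 1 fell, likewise under the shares of all genes. Of 27 fatty acid oxidation genes 4 fell, ACOX2 among them, and 0 rose (3 at an unadjusted p under 0.05 by limma).

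Among 32 solute carriers 4 rose and 6 fell. The phosphate importer SLC20A1 read 11.71, 11.56 and 11.68 without and 10.02, 10.21 and 10.41 with gefitinib, without overlap. SLCO4A1, a carrier of organic anions, fell by 1.68 ± 0.17. The amino acid exchanger SLC7A5 rose by 0.97 ± 0.10 with its partner SLC3A2 (0.62 ± 0.10), and the iron exporter SLC40A1 rose by 1.47 ± 0.20. Of 31 ATF4 and endoplasmic reticulum stress genes 3 rose and 7 fell, among them the asparagine synthetase ASNS, which fell by 0.90 ± 0.13. DDIT3, a stress-induced factor, rose by 0.73 ± 0.17. Of 24 heat shock genes 3 rose and 3 fell (12.5% each), near the 10.9% and 9.17% of all genes. HSPB8 (1.65 ± 0.37) was the largest change.

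EGFR, the target of the drug, read 9.74, 9.69 and 9.75 untreated and 9.52, 9.64 and 9.52 with gefitinib, a change of -0.17 ± 0.09 that did not pass (adjusted p = 0.252 by limma), although the groups did not overlap. ERBB2, its main partner, read 9.27, 9.11 and 9.35 without and 9.86, 9.77 and 9.58 with gefitinib, and rose by 0.49 ± 0.10. ERBB3, the partner that recruits PI3K, read 10.12, 10.15 and 10.15 without and 10.57, 10.54 and 10.35 with gefitinib, a rise of 0.35 ± 0.09 whose call was lost by averaging its probes (0.27, adjusted p = 0.0724 by limma) and without co-culture gefitinib array 1 or 2 (adjusted p from 0.0575 to 0.0609 by limma), and with only the compared groups (0.35, adjusted p = 0.055 by limma). Of 16 ERBB receptors, ligands and brakes 5 rose and 1 fell. The ubiquitin ligase CBLB, which ends receptor signals, rose by 1.63 ± 0.10, and ADAM10, a protease that sheds ligands, by 0.81 ± 0.19. HBEGF, an EGFR ligand, went from 9.59, 9.72 and 9.67 to 8.57, 8.75 and 9.05, a fall of 0.87 ± 0.13. TGFA, another ligand, rose by 0.44 ± 0.11, lost by averaging its probes (0.26, adjusted p = 0.0694 by limma) and without untreated co-culture array 2 or co-culture gefitinib array 2 or 3 (adjusted p from 0.0536 to 0.0742 by limma).

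Of 25 receptor kinases and ligands that can stand in for EGFR 2 rose and 5 fell. AXL read 11.48, 11.24 and 11.50 without and 10.61, 10.85 and 10.89 with gefitinib, a fall of 0.62 ± 0.12 that was lost under median scaling (-0.50, adjusted p = 0.0605 by limma). MET, the receptor of hepatocyte growth factor, read 9.65, 9.73 and 9.99 without and 10.23, 10.09 and 9.90 with gefitinib, with overlap (0.29 ± 0.14, adjusted p = 0.193 by limma). The AXL ligand GAS6 rose by 0.57 ± 0.10 and PDGFB by 0.65 ± 0.15, and FGFBP1, which frees growth factors from matrix, fell by 1.89 ± 0.15. Of 29 RAS, MAPK and PI3K pathway genes 1 rose and 1 fell, shares under those of all genes.

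FOXO and PI3K feedback genes gave 8 of 20 higher and 3 lower, with a median of 0.22. Alone 12 were higher and 2 lower, with a median of 0.68. The test of the difference passed below 0 for 8 and above 0 for 0 (also 0 at an unadjusted p under 0.05 by limma). Over all genes 3.34% passed below 0 and 3.94% above, and counts below 0 may depend on the scaling. CITED2, a transcriptional coregulator, read 8.03, 7.83 and 8.06 without and 10.26, 10.00 and 9.94 with gefitinib. KLHL24, a ubiquitin ligase adaptor, read 6.83, 6.71 and 7.06 without and 9.12, 8.71 and 8.67 with gefitinib. PIK3IP1, a PI3K inhibitor, read 6.49, 6.82 and 6.56 without and 8.59, 8.51 and 8.20 with gefitinib. All 3 were higher on every treated array, with folds of 4.27, 3.92 and 3.51. The pseudokinase TRIB2 went down from 7.75, 7.56 and 7.47 to 5.89, 5.43 and 5.53.

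In the BCL2 family 5 of 18 tested genes rose and 2 fell. BMF, a BH3-only killer protein, read 5.28, 5.52 and 5.46 without and 7.52, 7.27 and 7.34 with gefitinib, a 3.89-fold rise with groups well apart. BCL2L11, which encodes BIM, read 5.43, 5.79 and 5.59 without and 5.68, 5.66 and 5.78 with gefitinib; the groups overlapped and the change was 0.10 ± 0.15 (adjusted p = 0.683 by limma). HRK was below background on all untreated arrays and at least 1.84-fold higher. PMAIP1, which encodes NOXA, rose by 0.73 ± 0.12 on its brightest probe but not when its probes were averaged (0.33, adjusted p = 0.142 by limma). MCL1, a survival protein, rose by 0.53 ± 0.10, while BCL2L1, another, fell by 0.48 ± 0.09, a fall that was lost under median scaling (-0.37, adjusted p = 0.0578 by limma).

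Of 20 death receptor and caspase genes 4 rose and 2 fell. TNFSF10, the death ligand TRAIL, read 6.21, 6.01 and 6.06 without and 8.51, 8.25 and 7.90 with gefitinib, a 4.37-fold rise. Its receptor TNFRSF10A read 6.47, 6.92 and 6.59 without and 5.15, 5.39 and 5.80 with gefitinib, a 2.32-fold fall. For ligand and receptor alike the groups were apart, in opposite directions. The inflammatory caspases CASP1 and CASP4 rose by 1.87 ± 0.28 and 0.72 ± 0.10. Of 22 p53 targets 6 rose and 2 fell, with TP53INP1 (1.96 ± 0.27) and TP53I3 (1.48 ± 0.08) the largest rises. CASP1 and TP53INP1 were above background on 2 of 3 untreated arrays.

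Many contractile genes rose. Of 31 actin and smooth muscle genes 16 rose and 2 fell, with a median of 0.33. After TAGLN the largest rises were those of TNNC1, a troponin, from 5.46, 5.66 and 5.24 to 8.00, 7.96 and 7.71, and MYL9, a myosin light chain, from 4.63, 4.52 and 4.77 to 6.78, 6.87 and 7.02. The tropomyosin TPM1 read 10.03, 9.73 and 9.72 without and 11.29, 11.39 and 11.38 with gefitinib. Groups were apart in each of these, MYL9 being above background on 1 of 3 untreated arrays, and CALD1, which binds actin and myosin, rose by 1.17 ± 0.11. CSRP1, a LIM protein of the actin skeleton, fell by 0.59 ± 0.09. ACTA2, the smooth muscle actin that marks activated fibroblasts, changed by -0.22 and did not pass (adjusted p = 0.478 by limma). TAGLN also stands in the broad list of fibroblast markers, in which 4 of 18 rose and 3 fell and whose summed signal was 8266 to 8601 units without and 6554 to 7477 with gefitinib. In PC9 alone that sum was 6327 to 7897 units with DMSO and 7493 to 8883 with gefitinib. The brightest marker of the list, S100A4, had mean levels of 12.78 without and 12.10 with gefitinib in co-culture. Alone it had 12.42 with DMSO and 12.12 with gefitinib. Alone, without fibroblasts in the well, TAGLN rose by 4.13.

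For the contractile genes the promoter of SRF itself is shown, chosen after the motifs had been looked up as the tested member with the smallest p that holds a CArG box; the boxes at -30 to -21 and -10 to -1 are in capitals (chr6:43171019-43171268, plus strand, RefSeq, GRCh38.p14):
SRF: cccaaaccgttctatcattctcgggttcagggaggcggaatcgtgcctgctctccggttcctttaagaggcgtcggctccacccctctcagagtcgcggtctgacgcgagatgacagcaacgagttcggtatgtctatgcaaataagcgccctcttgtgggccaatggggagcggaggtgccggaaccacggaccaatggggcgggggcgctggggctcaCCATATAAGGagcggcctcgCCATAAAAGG
CArG boxes were in 4 of 26 contractile gene promoters (15.4%), that of SRF among them, and in 1.05% of the promoters of tested genes.

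YAP targets rose in 11 of 23 cases and fell in 2. CCN2, a matricellular protein and standard YAP target, read 10.13, 9.89 and 9.98 without and 11.77, 11.68 and 11.47 with gefitinib, a 3.12-fold rise between clearly separate groups. In monoculture the same gene changed by -0.08, and the difference was 1.72 ± 0.14 (adjusted p = 2.16e-04 by limma). WWC1, an upstream regulator of the Hippo pathway, rose by 0.96 ± 0.10, whereas the ectonucleotidase NT5E fell by 0.96 ± 0.11.

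Matrix and mesenchymal genes rose in 16 of 37 cases and fell in 5. MMP7, a matrix protease of epithelial cells, read 4.49, 5.02 and 4.90 without and 7.72, 7.87 and 7.66 with gefitinib, a 7.71-fold rise. In monoculture MMP7 rose by 1.84, less than in co-culture (1.11 ± 0.22, adjusted p = 0.0148 by limma), with 0 of 3 DMSO and 2 of 3 untreated co-culture arrays above background, which made it 1 of 9 genes that changed the same way in both settings and more strongly with fibroblasts. The collagen COL5A1 rose by 1.89 ± 0.12 and the matrix protein SPARC by 1.26 ± 0.11. VIM, vimentin, read 8.35, 8.80 and 8.55 without and 7.41, 7.66 and 8.14 with gefitinib, and fell by 0.83 ± 0.17, the lysyl oxidase homologue LOXL1 fell by 1.31 ± 0.11 and COL13A1 by 1.62 ± 0.19 (1 of 3 treated arrays above background). Epithelial genes rose in 14 of 40 cases and fell in 0 (2 at an unadjusted p under 0.05 by limma). CDH1, E-cadherin, read 10.04, 9.91 and 10.05 without and 10.53, 10.70 and 10.59 with gefitinib. CD24, a mucin-like surface protein, read 11.12, 10.91 and 11.08 without and 13.32, 13.31 and 13.05 with gefitinib. The mucin MUC1 read 10.37, 10.15 and 10.28 without and 12.35, 12.09 and 12.08 with gefitinib. Each was higher on all treated arrays. The claudin CLDN1 rose by 1.20 ± 0.10.

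Of 19 integrin genes 5 fell and 1 rose. ITGA6, a laminin receptor, read 9.10, 9.00 and 9.23 without and 7.33, 7.27 and 7.90 with gefitinib, without overlap. ITGA3 fell by 0.89 ± 0.11 and ITGB5 by 0.81 ± 0.09. The complement receptor subunit ITGAM, known from leukocytes, was the 1 that rose (1.04 ± 0.19), with 2 of 3 untreated arrays above background. Of 25 TGF-beta and BMP response genes 6 rose and 2 fell. The inhibitor of differentiation ID3 read 6.79, 6.56 and 6.36 without and 9.45, 9.38 and 9.37 with gefitinib, a 7.1-fold rise. BAMBI, a decoy receptor, rose by 1.82 ± 0.14, and BMPR2 rose by 1.26 ± 0.12.

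The insulin-like growth factor binding proteins split. IGFBP3 read 11.36, 11.45 and 11.52 without and 13.65, 13.54 and 13.38 with gefitinib. IGFBP5 read 4.38, 4.96 and 5.07 without and 8.14, 7.58 and 7.46 with gefitinib. IGFBP2 read 9.11, 9.26 and 9.11 without and 7.39, 7.65 and 7.85 with gefitinib. The first 2 were 4.23-fold and 7.57-fold higher with gefitinib, IGFBP5 with 2 of 3 untreated arrays above background, and the third was 2.89-fold lower, and IGFBP4 fell by 0.92 ± 0.11. A second passing probe of IGFBP5 rose by 1.33 log2 units, less than the 2.92 of its brightest probe. Of the 11 tested genes of this list 3 rose and 3 fell.

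Of 19 prostaglandin genes 6 rose and 2 fell. PTGS2, the inducible cyclooxygenase, read 5.15, 5.29 and 5.51 without and 9.49, 9.46 and 9.15 with gefitinib, a 16.6-fold rise (adjusted p = 1.32e-08 by limma). PTGIS, prostacyclin synthase, read 4.79, 5.08 and 5.60 without and 7.89, 7.89 and 7.54 with gefitinib. PLA2G10, a phospholipase that frees arachidonic acid, read 7.75, 7.66 and 7.91 without and 9.79, 9.82 and 9.58 with gefitinib. No treated array of these genes came near an untreated one, and PTGIS was above background on 2 of 3 untreated arrays. PTGES, a prostaglandin E synthase, rose by 0.65 ± 0.12, and PTGER4, a receptor of prostaglandin E2, by 0.47 ± 0.09, while alone PTGER4 fell by 0.41.

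Lysosome, proton pump and autophagy genes rose in 14 of 41 cases and fell in 1. The test of the difference from monoculture passed below 0 for 10 and above 0 for 0 (also 0 at an unadjusted p under 0.05 by limma). Over all genes 3.34% passed below 0 and 3.94% above, and counts below 0 may depend on the scaling. RETREG1, a receptor for the autophagy of endoplasmic reticulum, read 5.50, 5.10 and 5.76 without and 8.62, 8.71 and 8.49 with gefitinib, well apart. WIPI1, an early autophagy protein, rose by 2.31 ± 0.20 (2 of 3 untreated arrays above background) and GABARAPL1, a membrane tag of autophagosomes, by 1.20 ± 0.11. The protease CTSH rose by 1.28 ± 0.09. ATG16L1, of the conjugation complex of autophagy, was the 1 that fell (-0.73 ± 0.10). Of 22 ion channel genes 7 rose and 4 fell. The chloride channel ANO1 read 10.41, 10.55 and 10.51 without and 8.75, 8.88 and 9.11 with gefitinib. The intracellular channel protein CLIC3 read 8.10, 7.78 and 7.79 without and 10.61, 10.35 and 10.42 with gefitinib. Both were without overlap, in opposite directions. TRPV6, a calcium channel below background on all untreated arrays, was at least 2.96-fold higher.

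Of 35 Notch, WNT and stem cell genes 8 rose and 6 fell. SOX4 read 7.51, 7.32 and 8.02 without and 9.89, 9.82 and 9.66 with gefitinib. The retinal dehydrogenase ALDH1A1 read 5.45, 5.48 and 5.22 without and 7.53, 7.22 and 7.49 with gefitinib. The ligand WNT5A read 8.16, 8.00 and 8.04 without and 10.27, 9.96 and 9.78 with gefitinib. These 3 genes were higher on every treated array. WNT7A read 7.40, 7.52 and 7.53 without and 6.35, 6.26 and 6.54 with gefitinib. The rises were 4.53-fold, 4.07-fold and 3.83-fold, and WNT7A was 2.14-fold lower. Among 16 lung lineage genes 4 rose and 1 fell. HOPX, a homeodomain protein of alveolar type 1 cells, rose by 2.34 ± 0.09 on its brightest probe, with 1 of 3 untreated arrays above background. A second, dimmer HOPX probe changed by 0.26 and did not pass (adjusted p = 0.553 by limma). FOXJ1, the master factor of ciliated cells, fell by 0.96 ± 0.19. The nuclear receptor PPARG read 10.77, 10.74 and 10.77 without and 9.82, 9.69 and 9.87 with gefitinib, a fall of 0.97 ± 0.09. Of 16 glucocorticoid response genes 6 rose and 1 fell, of 19 nuclear receptors 1 rose and 2 fell, of 16 circadian clock genes 0 rose (also 0 at an unadjusted p under 0.05 by limma) and 2 fell, of 11 serpins and plasminogen activators 1 rose, and of 8 metallothionein genes 1 rose. Of 12 housekeeping genes 1 rose and 1 fell. From the nuclear receptors on, the shares of these lists were near or under those of all genes (10.9% higher and 9.17% lower).

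**Figure D3:**
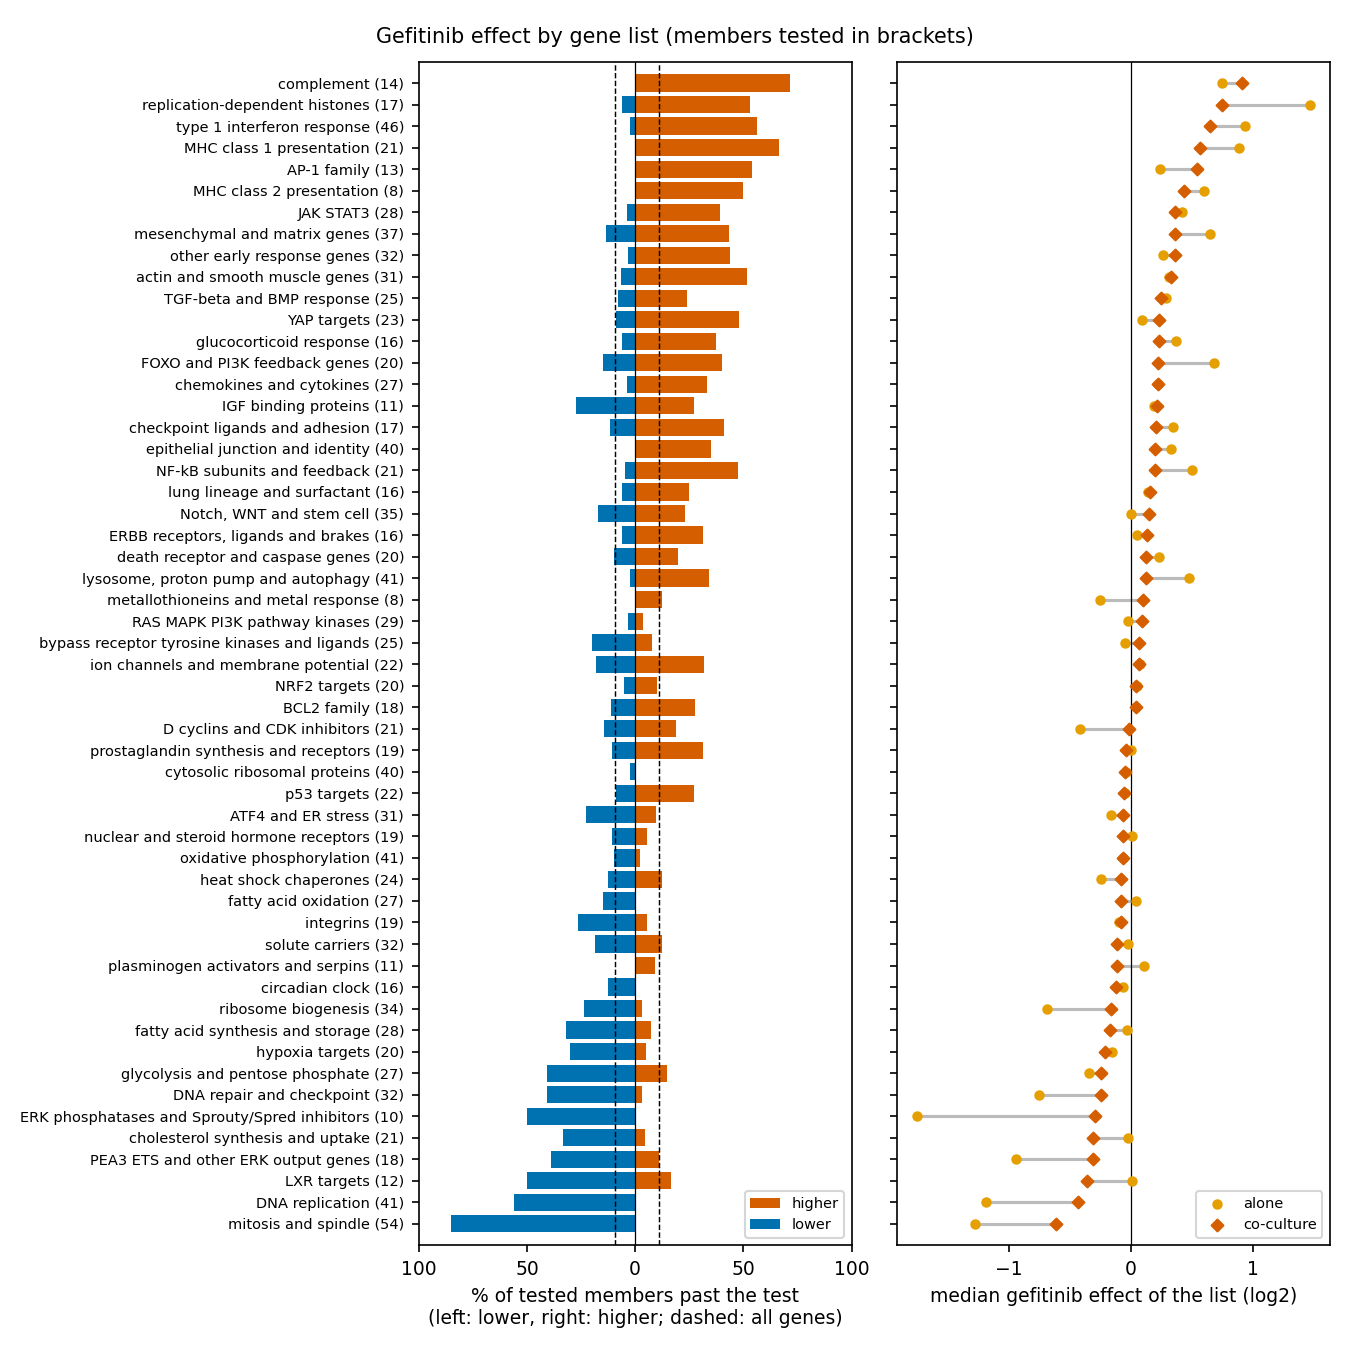
Left, share of the tested members of each gene list that were higher (right of 0) or lower (left of 0) with gefitinib in co-culture, with dashed lines for all genes (10.9% higher, 9.17% lower). Right, the median log2 effect of each list alone (circles) and in co-culture (diamonds); mitosis lies at -0.61 and complement at 0.91 in co-culture.

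The response in co-culture was then set beside that of PC9 alone, which rests on other arrays. Alone, 5511 genes changed (40.8%), 2846 higher (21.1%) and 2665 lower (19.7%). Of the genes higher alone, 1304 (45.8%) were also higher in co-culture, 1531 (53.8%) did not pass there and 11 were lower. Of the genes lower alone, 1013 (38.0%) were also lower, 1643 (61.7%) did not pass and 9 were higher. Read from the side of co-culture, 1304 of its 1471 rises (88.6%) and 1013 of its 1239 falls (81.8%) were shared with cells grown alone.

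The test of the difference between the effects passed for 983 genes (7.27%), 532 with a more positive effect in co-culture (3.94%) and 451 with a more negative one (3.34%). Among the 2317 genes that changed the same way in both settings, this difference did not pass for 1832, the effect was smaller in co-culture for 476 and larger for 9. Among genes at least 2-fold higher alone, the effect in co-culture was a median of 61.1% of the one alone (quartiles 48.1% and 75.1%, 788 genes), and among those at least 2-fold lower it was 46.0% (32.9% and 59.2%, 587 genes). Genes picked for a large effect alone tend to give a lower ratio than genes picked for one in co-culture, so the other choice is given as well. For genes at least 2-fold higher in co-culture the median was 77.0% (371 genes), and for those at least 2-fold lower it was 91.3% (121 genes). The share of differences above 0 was 54.1% and moved to 95.1% with median scaling, so the split by direction depends on the scaling.

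**Figure D4:**
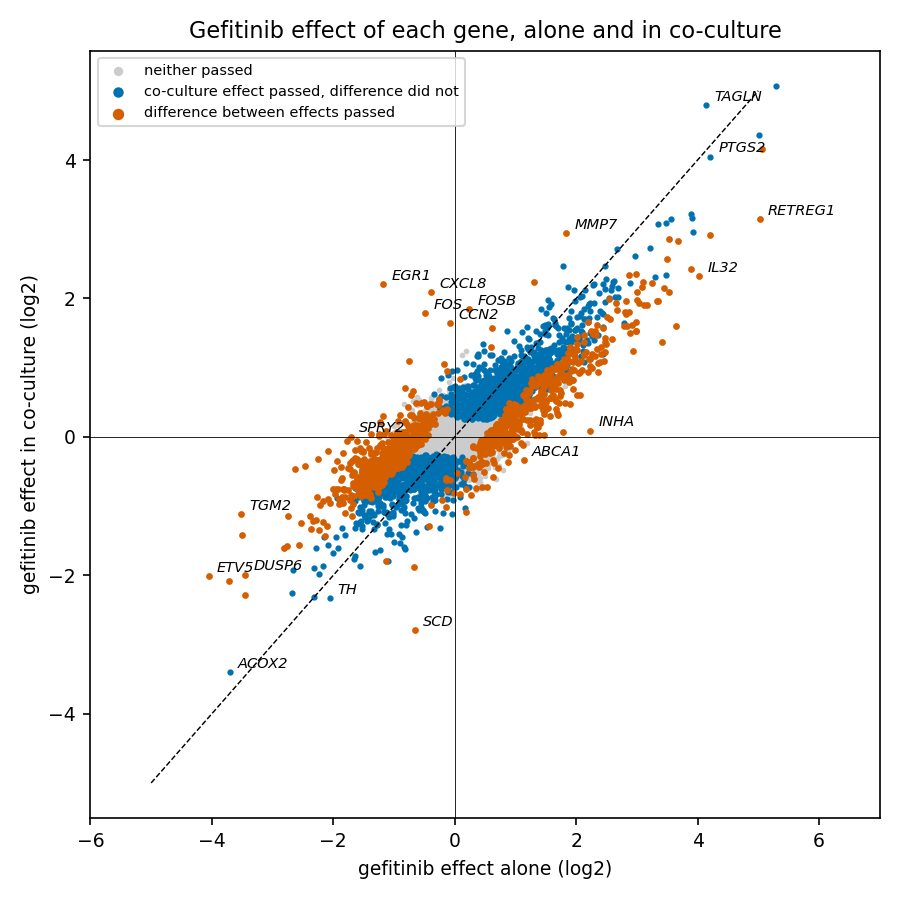
Gefitinib effect of each of 13514 genes alone (horizontal, log2) and in co-culture (vertical, log2); the dashed line marks equal effects, and colours mark whether the effect in co-culture and the difference between effects passed, grey being genes in which neither did. EGR1, FOS, FOSB, CXCL8 and CCN2 lie high on the left of the line, SCD lies far below it, and TAGLN, PTGS2, ACOX2 and TH lie near it.

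The largest differences toward a positive effect were those of EGR1 (2.21 in co-culture, -1.18 alone), CXCL8 (2.09 and -0.38), the transglutaminase TGM2 (-1.12 and -3.52), FOS (1.79 and -0.49), PHLDA1 (-0.46 and -2.62) and MALL (-1.42 and -3.50). Alone, EGR1 read 8.55, 8.36 and 8.34 with DMSO and 7.18, 7.41 and 7.11 with gefitinib, so that the drug-free levels were close in both settings and the treated ones moved apart. CXCL8 read 6.04, 7.16 and 6.77 with DMSO and 6.09, 6.47 and 6.26 with gefitinib alone, with overlap. For TGM2 the levels were 12.53, 12.51 and 12.46 without and 11.28, 11.48 and 11.38 with gefitinib in co-culture. Those groups were apart, yet the fall was smaller than alone by 2.41 ± 0.16 (adjusted p = 4.53e-05 by limma). The co-culture call of PHLDA1 was lost without untreated co-culture array 3 or co-culture gefitinib array 1 or 2 (adjusted p from 0.0539 to 0.0701 by limma) and also under median scaling (-0.34, adjusted p = 0.225 by limma). The largest toward a negative effect were INHA, an inhibin subunit (0.09 in co-culture, 2.23 alone), SCD (-2.80 and -0.66), NLRP7 (1.60 and 3.64), TPPP3 (1.37 and 3.41), RETREG1 (3.15 and 5.02) and RGCC, a cell cycle regulator (0.07 and 1.79). SCD read 8.59, 8.21 and 8.21 with DMSO and 7.72, 7.63 and 7.68 with gefitinib alone. Its drug-free level was thus lower alone than in co-culture by more than 1 log2 unit on every array, and its levels with gefitinib were all under 8 in both settings. NLRP7 was below background on all untreated co-culture arrays, where its rise was at least 2.91-fold, and TPPP3 was above it on 1 of 3. INHA and RGCC rose alone but did not pass in co-culture, where RGCC read 6.77, 6.95 and 6.78 without and 7.17, 6.61 and 6.92 with gefitinib, with overlap.

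Of 373 genes that passed in co-culture and not alone, 37 also passed the test of the difference, 15 higher and 22 lower in co-culture. They include CXCL8, FOSB (1.85 in co-culture, 0.24 alone) and CCN2 among the higher and NDRG1, DDIT4 and SREBF1 (-0.81 and -0.01) among the lower. The mean level of SREBF1 was 9.15 untreated and 8.34 treated in co-culture, against 8.38 with DMSO and 8.37 with gefitinib alone. Its treated levels were thus close in both settings, and its drug-free level was higher in co-culture. In 20 genes the effects passed in opposite directions. EGR1 and FOS rose in co-culture and fell alone, and so did ANKRD1, a YAP target, with 1.10 and -0.76. ANKRD1 was picked out after its values were seen. Its mean level was 6.14 untreated and 7.24 treated in co-culture, against 7.11 with DMSO and 6.35 with gefitinib alone. Its drug-free level was thus lower in co-culture, and its treated level there was close to the DMSO level. Untreated co-culture and DMSO monoculture differ in the agent their labels name as well as in the fibroblasts, and these cannot be told apart as sources of a different drug effect. The labels name EMEM for co-culture and do not settle the medium of the monocultures at collection.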

How the data were processed

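RNA of PC9 cells was measured on 12 Illumina bead arrays, 3 per group. The authors deposited an unprocessed signal intensity for each probe and array, with a detection p-value per probe of unstated calculation; per the file headers neither was normalized. A second deposited table holds intensity values that the authors normalized by a method the sources used here do not name; its rank order matched the unprocessed signals on every array (lowest Spearman correlation 0.9999303, across probes).

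From the unprocessed signals, background correction and quantile normalization followed neqc of limma 3.58.1 in R 4.3.3, with an offset of 16 and log2 values. Probes needed a detection p under 0.05 on at least 3 of 12 arrays (25510 of 48102). Probes were named from the platform annotation, 30112 with 1 gene, 8 with several and 17982 unlisted, and the brightest probe stood for each of 3677 genes that had several. Of 135 genes drawn for naming that had several probes, 22 had one of opposite sign, and 0 had one that passed with opposite sign. One limma model over 12 arrays in 4 groups gave the effect in co-culture, the effect alone and their difference, with 8 residual and 3.3 prior degrees of freedom and Benjamini-Hochberg adjustment over 13514 genes. A fold called "at least" sets the treated mean against the lowest signal detected where all untreated arrays were below background. The fit was checked on simulated data.

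The comparison, the 59 gene lists (1565 genes, 1266 tested) and the alternatives were chosen with earlier results of these data known. A rule drew 354 genes for naming, and not all of them are named above. It took the 15 largest rises and 15 largest falls in co-culture with groups apart and the 10 largest differences either way. It also took up to 5 members of each list with the smallest p, any called against the list's direction, and a panel of EGFR pathway genes. Members called against their list's direction but left out above include H2BC11 (-0.44), DDB2 (-0.61), PDLIM7 (-0.40) and ATM (0.36). The single falls in the NF-kB list and in the JAK and STAT3 list are given as counts only. ACTA2, ANKRD1 and SRF were named outside this rule, after their values were seen. Alternatives were the authors' values, no background correction, median scaling, a stricter filter and none, averaged probes, array weights, only the compared groups, a fold of 1.5, the replicate number as a block, and each array left out. The authors' normalized intensity table served only as an alternative. Promoters are 250 bases before RefSeq starts, GRCh38.p14. The number of arrays limits the precision.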

Additional observations from a re-analysis of the deposited data

Results flagged for a closer look

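The effect of gefitinib differed between co-culture and monoculture by the limma test of the difference in 532 genes with a more positive and 451 with a more negative effect in co-culture. Among the genes named in the report the effect was more positive, on the log2 scale, by 3.39 for EGR1, 2.48 for CXCL8, 2.41 for TGM2, 2.28 for FOS, 2.16 for PHLDA1, 2.09 for MALL, 2.05 for FOSL1, 2.04 for ETV5, 1.92 for FOXD1, 1.89 for DUSP4, 1.71 for SPRY2, 1.65 for ETV4, 1.60 for SPRY4, 1.46 for DUSP6, 1.41 for HBEGF, 0.74 for MYC and 0.72 for CCND1. The difference was negative for INHA and SCD (-2.14 each), NLRP7 (-2.05), TPPP3 (-2.04), RETREG1 (-1.87), RGCC (-1.72), IL32 (-1.71), GASK1B (-1.69), ABCA1 (-1.47), IFIT2 (-1.46), BMF (-0.86) and ERBB3 (-0.66). Under median scaling the differences of BMF (-0.49, adjusted p = 0.124 by limma) and ERBB3 (-0.26, adjusted p = 0.403 by limma) no longer passed, and with averaged probes those of ERBB3 (-0.38, adjusted p = 0.124 by limma) and SPRY4 (0.77, adjusted p = 0.0782 by limma) did not.

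The ERK brakes and ETS factors in these lists are on the positive side, and all of them but DUSP4 belong to the fixed panel. Of the 10 tested brakes 7 passed above 0, and SPRY1 did not pass. DUSP6 read 8.33, 8.29 and 8.38 with DMSO and 5.02, 4.94 and 4.69 with gefitinib alone, against 8.72, 8.82 and 8.71 and 6.60, 6.69 and 7.00 in co-culture. FOXD1, a forkhead factor, changed by -0.32 in co-culture and -2.24 alone. GASK1B, a Golgi protein, changed by 1.24 and 2.93. ERBB3 rose by 1.00 alone and BMF by 2.82.

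A further 7221 probes passed the filter but were unnamed in the annotation used here. Of these, 128 were higher and 86 lower with gefitinib in co-culture (2.96%).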

How the results depend on the processing

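In co-culture 1471 genes were higher and 1239 lower; a stricter detection filter gave 1633 and 1458, no filter 1347 and 1092, averaged probes 1417 and 1230, array weights 1551 and 1322, and only the compared groups 1272 and 1014. Median scaling gave 377 lower genes in co-culture, 1643 higher genes alone, and 1581 differences above and 82 below 0. Differences below 0 numbered 806 without background correction and 847 with the authors' values. A fold of at least 1.5 as an added condition left 882 higher and 529 lower genes in co-culture, 1753 and 1536 alone, and 1193 shared. Leaving out each array in turn gave 1135 to 1450 higher and 874 to 1236 lower genes in co-culture, 2522 to 2828 and 2361 to 2655 alone, 318 to 493 differences above and 249 to 437 below 0, and 1744 to 2211 shared genes; the lowest counts of differences came without gefitinib co-culture array 3. With the replicate number as a block the counts were 1361 and 1106 in co-culture, 387 and 322 differences, and 2116 shared genes. Deviations of same-numbered co-culture arrays from their group means correlated at 0.0087, 0.0119 and -0.019, so no shared replicate effect was visible. The labels do not say whether same-numbered arrays were paired, and with 3 arrays per group these correlations cannot decide it. Among the genes drawn for naming with a call in co-culture, median scaling ended 67 calls, averaged probes 20 and the block 19. Leaving out a co-culture array ended 29 to 38. None of these calls reversed. Averaging probes turned the difference between effects for ALDH1A1 to 0.52 (adjusted p = 0.0437 by limma) and for HOPX to 0.17 (adjusted p = 0.685 by limma). The cause was not tested; changes of low signals near background are understated by the offset, and 3 arrays per group limit which small changes could pass.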
